A study of Mus musculus with 9 samples.

Results

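The comparison set spinal cords of mice with treated experimental autoimmune encephalomyelitis (EAE) against cords of Control mice, to describe what differed from Control cord under treatment. EAE is a mouse model of multiple sclerosis in which immune cells attack the myelin of the central nervous system. All mice carried the C57BL/6 strain label. The treated mice had EAE and received EHP-101, a compound known here by its code name, by mouth at 20 mg/kg, and form the group EAE+EHP-101 of 3 libraries. The 3 libraries of the Control group carry no further treatment label, and the 3 libraries of EAE mice without the compound serve only as a reference. The libraries were chosen by their group label, which gave 6 of the 9 libraries of the study, and the genes by their counts: 16454 of 27179 gene identifiers had 10 or more counts in at least 3 of the 6 libraries. How EAE was induced, whether Control or EAE mice received a vehicle, the sex and age of the mice, the length of treatment and the time of sampling are not given in the labels used here. The libraries of each group are biological replicates by the study's design text.

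As background, EAE brings T cells and myeloid cells into the cord, and cytokines such as interferon gamma induce MHC class II, MHC class I, GTPases and chemokines in microglia, infiltrating cells and other glia. Microglia and astrocytes take on reactive states with more complement, lysosomal and Fc receptor transcripts, while neurons and oligodendrocytes may be lost or may change their transcripts. In bulk tissue, fewer cells of a type and less RNA per cell cannot be told apart.

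Each library held between 30448507 and 32661741 counts. On the first principal component, which took 64.3% of the variance of log2 CPM (counts scaled to the library total), Control libraries lay between -42.5 and -35.6, EAE libraries between 30.5 and 45.5, and the treated libraries at -17.5, 8.33 and 12.8. Treated replicate 1 thus stood apart from the other treated libraries, on the Control side. Among Control libraries, replicate 3 had the lowest weight when limma weighted libraries by their quality (0.28), and replicate 1 held more skeletal muscle transcripts than any other library (Acta1 at 9.58 CPM, against 0.484 to 1.21 CPM elsewhere). The libraries also differed in a trend with gene length: the Spearman correlation across genes between length and level relative to the average library was 0.241 to 0.411 in Control libraries, -0.343 to -0.0420 in treated libraries and -0.326 to -0.257 in EAE libraries. Genes called higher had a median length of 1622 bases and genes called lower 4911 bases, against 2785.5 bases over all genes tested. The part of this trend in the results was not tested, and counts of a list with it removed stand beside the list where they move by over 1.5 times, as do named genes no longer called.

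Treated cord differed from Control cord in both directions. At an adjusted p under 0.05 in edgeR's quasi-likelihood test, 1624 genes (9.87% of those tested) were higher and 1625 genes (9.88%) were lower, and "rose" and "fell" are used in that sense. The counts of each list below for treated cord against Control are to be read against these shares. At least 2-fold, 287 genes (1.74%) rose and 72 genes (0.438%) fell. The median fold of the called genes was 1.29 for rises and 1.28 for falls. Scaled by library totals, the split was 2117 higher against 1322 lower, and with the gene length trend removed 726 rose and 797 fell. The counts rested most on treated replicates 2 and 3. Without treated replicate 1 there were 1616 rises and 1623 falls, without replicate 2 there were 237 and 361, and without replicate 3 there were 447 and 538. Without Control replicate 2, 762 genes rose and 1102 fell. With each of the 6 libraries left out in turn, 229 rises and 350 falls were called every time. For reference, the same fit called 3270 genes higher and 2739 lower in EAE than in Control. In treated cord against EAE it called 64 genes higher and 739 lower, of the same 16454 tested. List counts given for these contrasts are to be read against these numbers, and the contrasts share libraries.

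**Figure D1:**
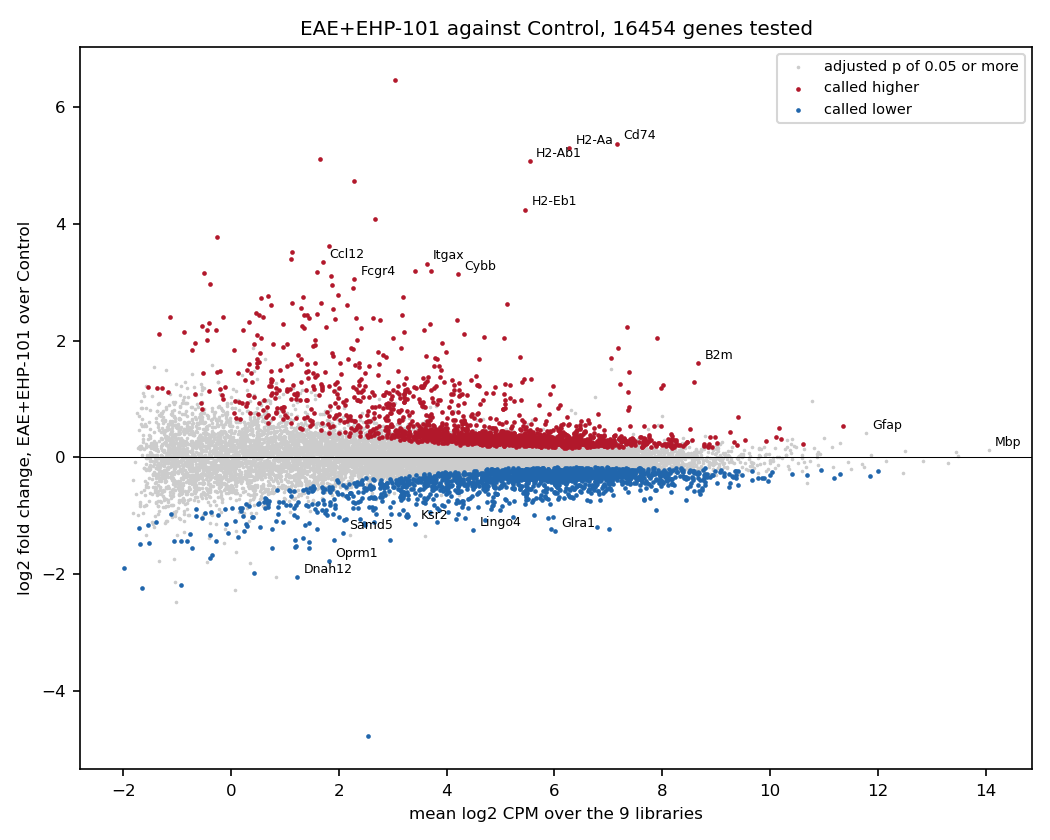
Each point is 1 of the 16454 genes tested, with its mean log2 CPM on the horizontal axis and its log2 fold change of EAE+EHP-101 over Control on the vertical axis; red and blue points were called higher or lower at an adjusted p under 0.05. The 287 rises of at least 2-fold outnumber the 72 falls of that size, and the labelled MHC class II genes reach log2 fold changes of up to 5.37.

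Among genes called with every library left out and averaging 1 or more in log2 CPM, the 10 largest rises were Cd74, H2-Aa, H2-Ab1 and H2-Eb1 of antigen presentation, the chemokine gene Ccl12 and the chemokine receptor gene Ccr2, Itgax (the integrin CD11c), Cybb (the core of the enzyme of the oxidative burst), the Fc receptor gene Fcgr4, and Ccn5, a secreted matricellular protein. All but Ccn5 are best known from immune cells. Cd74, the invariant chain that accompanies MHC class II, was at 2.53, 2.12 and 1.34 CPM in the Control libraries and at 8.41, 93.5 and 147 CPM in the treated libraries. All treated libraries were higher, but treated replicate 1 was far below the others. With the standard error (SE) of the log2 fold change beside it, the difference was 5.37, SE 0.85, adjusted p = 0.00476. Without treated replicate 1 the log2 fold change was 5.90. EAE libraries held 317 to 369 CPM of Cd74, above every treated library, yet treated and EAE cord were not called different for it (-2.05, SE 0.62, adjusted p = 0.0987). Itgax was at 0.328, 0.537 and 0.458 CPM in Control and at 1.15, 5.89 and 6.31 CPM in treated libraries (log2 fold change 3.32, SE 0.61, adjusted p = 0.00706). Ccr2, which marks recruited monocytes, went from 0.131 to 0.361 CPM in Control to 0.959, 2.20 and 3.62 CPM in treated libraries (log2 fold change 3.17, SE 0.50, adjusted p = 0.00476). Ccr2, Ccl12 and Fcgr4, with 23, 24 and 41 counts over the Control libraries, reached 10 counts in 3 libraries only with treated libraries counted. For each of the 10 genes treated replicate 1 lay above Control and below the other treated libraries, and the EAE libraries lay above them all.

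Genes of MHC class II presentation, which show peptides to CD4 T cells, rose together. Of 16 listed genes 14 passed the filter, and 11 of them rose and none fell, with a median log2 fold change of 1.29 against 0.01 over all genes tested. Without treated replicate 2 or 3, 7 rose. In EAE against Control 13 rose, with a median of 2.69. The mean log2 CPM of the list relative to the Control mean was 0.68, 2.41 and 2.61 in the treated libraries and 3.54 to 3.67 in EAE libraries. H2-Aa, the alpha chain of the A molecule, was at 1.44, 0.695 and 0.916 CPM in Control libraries and at 3.96, 47.7 and 68.7 CPM in treated libraries (log2 fold change 5.30, SE 0.90, adjusted p = 0.00569). H2-DMa, part of the peptide exchange factor, rose from 4.09 to 4.26 CPM to 6.23, 10.7 and 13.8 CPM (log2 fold change 1.30, SE 0.23, adjusted p = 0.00594). The groups did not overlap for either gene. Ciita, the master regulator of MHC class II transcription, did not pass the test: it was at 2.69, 2.12 and 1.80 CPM in Control and at 1.25, 2.69 and 3.75 CPM in treated libraries (log2 fold change 0.22, SE 0.32, adjusted p = 0.670). Its treated libraries lay on both sides of the Control range. The costimulatory ligand gene Cd86 rose (log2 fold change 1.22, SE 0.27, adjusted p = 0.0123), while Cd80 and Cd40 did not pass (log2 fold changes 0.45 and 0.19).

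Promoters of this group are known for the Y box, a CCAAT element bound by NF-Y. In RefSeq promoter windows of GRCm38.p6, which run from 250 bases before to 50 bases after a gene's start, GATTGG on either strand lay in 6 of the 9 class II genes with a window, in 10 of 17 class I genes and in 22.8% of the 12542 tested genes with a window. A match describes the letters only, and binding was not measured. The windows of H2-Aa (chr17:34287774-34288073, minus strand) and H2-Eb1 (chr17:34305617-34305916, plus strand) are shown because these genes were among the largest rises and held a match. Cd74 and H2-Ab1, which rose more than H2-Eb1, were not among the 6 genes with a match. Of the 14 tested class II genes 9 had a window, and a gene without one was not searched. The missing match therefore does not show that the promoters of Cd74 and H2-Ab1 lack the element. The capitals mark GATTGG or its reverse complement, whose first base lies at position -49 in H2-Aa and at -60 and -35 in H2-Eb1 relative to the start of the transcript.
H2-Aa: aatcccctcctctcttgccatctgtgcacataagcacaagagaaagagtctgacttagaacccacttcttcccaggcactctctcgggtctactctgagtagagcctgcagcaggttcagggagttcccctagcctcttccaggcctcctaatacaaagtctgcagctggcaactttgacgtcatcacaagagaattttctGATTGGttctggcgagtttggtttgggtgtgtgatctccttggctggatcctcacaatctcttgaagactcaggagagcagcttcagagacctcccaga
H2-Eb1: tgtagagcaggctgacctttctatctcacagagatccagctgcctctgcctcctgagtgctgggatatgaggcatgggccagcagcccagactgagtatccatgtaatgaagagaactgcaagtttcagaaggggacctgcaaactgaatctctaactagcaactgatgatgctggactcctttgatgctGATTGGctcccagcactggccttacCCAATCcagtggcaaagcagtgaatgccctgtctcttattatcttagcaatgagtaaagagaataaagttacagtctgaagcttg

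MHC class I genes and the immunoproteasome, which cut peptides and show them to CD8 T cells, rose almost without exception. Each of the 20 listed genes passed the filter, and 18 rose (median log2 fold change 1.34). The others were Tapbpl (0.26) and the peptidase gene Erap1 (0.03). With each library left out in turn, 12 of the calls held. B2m, the light chain of class I molecules, was at 119, 106 and 136 CPM in Control and at 162, 471 and 470.0 CPM in treated libraries (log2 fold change 1.61, SE 0.30, adjusted p = 0.00741). H2-K1 was at 33.7 to 38.0 CPM in Control and at 55.7, 167 and 172 CPM in treated libraries (log2 fold change 1.87, SE 0.31, adjusted p = 0.00556). Nlrc5, a transcriptional activator of class I genes, went from 2.58 to 2.81 CPM to 4.51, 14.8 and 20.8 CPM (log2 fold change 2.29, SE 0.43, adjusted p = 0.00726). In each case treated replicate 1 was the lowest treated library but above all Control libraries. In EAE against Control all 20 rose with a median of 2.31, and 7 of the 20 were lower in treated cord than in EAE. H2 genes have near-identical copies, so the level of a single H2 gene is uncertain with reads of 50 bases, and the same holds for Lyz2, C4b and the GBP and IRG families.

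Interferon-stimulated genes rose as well. Of 29 genes of the type I interferon response, all tested, 21 rose (median log2 fold change 1.00). Of 16 tested genes of the GBP and IRG families, GTPases that attack vacuoles of intracellular microbes, listed with their regulator Irf1, 12 rose (median 1.23). In each of these lists 1 gene passed the filter only through the treated libraries, meaning that no Control library held 10 counts of it. Among the others, 20 of 28 and 11 of 15 rose. Here and in the lists below, such others may still have needed treated libraries to pass. With each library left out in turn, Bst2 and Gbp2 alone kept their calls. Bst2, a membrane tether of enveloped viruses, was at 3.38, 3.73 and 4.48 CPM in Control and at 6.46, 16.1 and 14.8 CPM in treated libraries (log2 fold change 1.69, SE 0.28, adjusted p = 0.00550). Gbp2 was at 6.04, 6.57 and 7.72 CPM in Control and at 9.75, 35.1 and 38.8 CPM in treated libraries (log2 fold change 2.04, SE 0.39, adjusted p = 0.00790). Treated replicate 1 was the lowest treated library for both, without overlap with Control. Over the GTPase list, treated replicate 1 lay 0.13 above the Control mean in log2 CPM, replicates 2 and 3 lay 1.64 and 2.08 above it, and EAE libraries 2.19 to 2.41. Without treated replicate 2, 1 gene of each list rose, and without replicate 3, 5 interferon genes and 4 GTPase genes. Without Control replicate 2 these counts were 11 and 7, and 7 GTPase genes rose without Control replicate 1. Rsad2 (0.30), Ifit2 (0.24), Oas2 (0.52) and Stat2 (0.33) were among the 8 interferon genes that did not pass.

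The interferon element of such promoters is built of repeated GAAA units. GAAANNGAA, searched on both strands of the windows, lay in 14 of 20 type I interferon genes with a window, in 9 of 11 genes of the GTPase list, in 5 of 17 class I genes and in 8.58% of all tested genes with a window. Windows of Gbp2 (chr3:142620413-142620712, plus strand), Cxcl10 (chr5:92348840-92349139, minus strand) and B2m (chr2:122147437-122147736, plus strand) are shown, 1 gene each of the GTPases, the chemokines and class I, all of which rose. The capitals mark the element, whose first base lies at -58 on the opposite strand in Gbp2, at -213 in Cxcl10 and at -139 in B2m. The lists rest in part on the same knowledge as the element, so the shares describe the lists and not the treatment.
Gbp2: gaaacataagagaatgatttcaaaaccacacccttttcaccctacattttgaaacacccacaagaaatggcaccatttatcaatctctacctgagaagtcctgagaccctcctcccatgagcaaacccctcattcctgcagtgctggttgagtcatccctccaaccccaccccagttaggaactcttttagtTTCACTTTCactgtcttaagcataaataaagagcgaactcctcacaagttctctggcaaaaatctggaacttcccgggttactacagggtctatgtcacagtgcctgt
Cxcl10: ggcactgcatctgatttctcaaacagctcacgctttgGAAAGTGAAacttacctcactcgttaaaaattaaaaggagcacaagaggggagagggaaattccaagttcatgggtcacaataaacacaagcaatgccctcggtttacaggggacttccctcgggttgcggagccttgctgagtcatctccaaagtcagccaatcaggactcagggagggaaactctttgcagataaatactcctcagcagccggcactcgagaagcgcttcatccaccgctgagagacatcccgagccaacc
B2m: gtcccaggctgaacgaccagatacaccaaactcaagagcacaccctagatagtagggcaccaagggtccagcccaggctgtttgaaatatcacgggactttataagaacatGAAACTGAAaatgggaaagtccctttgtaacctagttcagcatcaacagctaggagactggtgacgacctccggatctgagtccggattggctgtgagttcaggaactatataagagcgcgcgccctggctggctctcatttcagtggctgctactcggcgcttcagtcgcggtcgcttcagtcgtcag

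**Figure D2:**
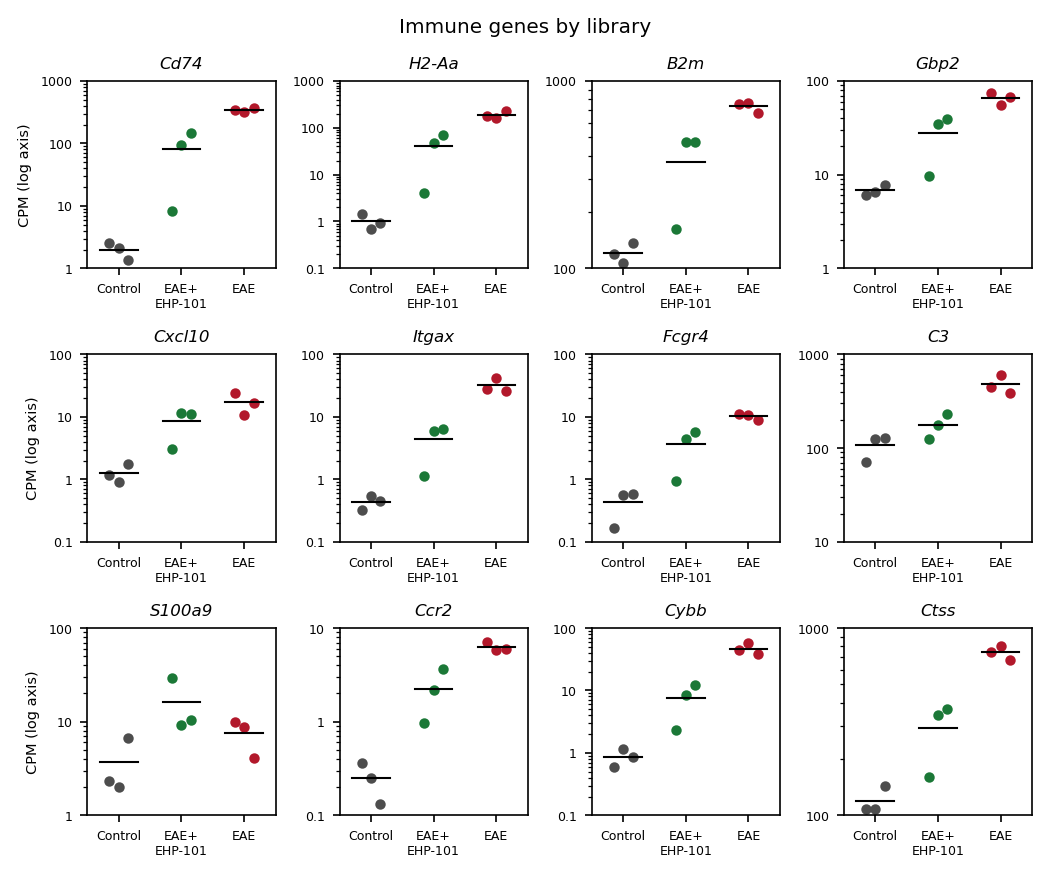
CPM on a log axis in each library for 12 immune genes; points are single libraries (3 per group, in replicate order from the left), and the line is the group mean. In 11 panels treated replicate 1, the leftmost green point, is the lowest treated library (for B2m 162, 471 and 470.0 CPM), while for S100a9 it is the highest.

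Chemokines recruit leukocytes. Of 20 listed, 14 were tested and 9 rose, but 4 of the 14 passed the filter only through the treated libraries. Of the other 10, 5 rose, among them Ccl12, which with 24 counts over the Control libraries also needed treated libraries to pass. Of all 14, 2 rose without treated replicate 2 and 3 without replicate 3. Ccl12, a monocyte attractant, was at 0.230, 0.221 and 0.327 CPM in Control and at 1.34, 2.78 and 3.84 CPM in treated libraries (log2 fold change 3.34, SE 0.42, adjusted p = 0.00403). Cxcl10, which draws T cells through CXCR3, was at 1.18, 0.916 and 1.73 CPM in Control and at 3.04, 11.5 and 11.1 CPM in treated libraries (log2 fold change 2.74, SE 0.51, adjusted p = 0.00701). The groups did not overlap for either. Cxcl9, another ligand of CXCR3, had 8 counts over the Control libraries and 743 over the treated libraries, nearly all in replicates 2 and 3 (0.703, 10.9 and 12.3 CPM). EAE libraries held 12.7 to 20.1 CPM of Cxcl9. Cxcl9 is 1 of those 4, and without any 1 of the treated libraries it no longer passed the filter.

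Microglial genes were higher in treated cord. Of 22 genes of disease-associated microglia, a state seen around plaques and lesions, 15 rose (median log2 fold change 0.64), against 22 in EAE (median 2.20), and 21 were lower in treated cord than in EAE. Of the 22, 3 rose without treated replicate 2, 8 without treated replicate 3 and 9 without Control replicate 2, and 3 calls held with each library left out. Of 14 homeostatic microglia genes 8 rose (median 0.50). The count was 2 and 3 without treated replicates 2 and 3, and 4 without Control replicate 1 or 2. Tmem119, a marker of resident microglia, was at 18.2, 16.2 and 20.6 CPM in Control and at 23.3, 38.1 and 37.3 CPM in treated libraries (log2 fold change 0.84, SE 0.16, adjusted p = 0.00801). Lgals3, a galectin of phagocytes, rose from 5.78 to 11.7 CPM to 24.1, 38.3 and 28.0 CPM (log2 fold change 1.72, SE 0.25, adjusted p = 0.00403). Trem2, a lipid receptor of microglia, rose from 9.19 to 12.1 CPM to 15.4, 29.96 and 31.7 CPM (log2 fold change 1.24, SE 0.25, adjusted p = 0.00880). No treated library overlapped Control for these genes. The purinergic receptor gene P2ry12, high in resting microglia, lay within the Control range (34.4, 41.2 and 40.1 CPM against 32.98 to 52.2 CPM). Spp1 (0.26) and Igf1 (-0.27), both known from lesion microglia, were not called against Control and were lower than in EAE (log2 fold changes -1.04 and -1.32). Of 22 lysosomal and phagocytic genes 13 rose, 4 without treated replicate 2 or 3 and 7 without Control replicate 2. Of 16 tested Fc and inhibitory receptor genes 13 rose, and 2 of the 16 passed the filter only through the treated libraries. Of the other 14, 11 rose, among them Lilrb4a, which also needed treated libraries to pass. Of the 16, 7 and 8 rose without treated replicates 2 and 3. Ctss, the lysosomal protease that trims the invariant chain, was at 109, 108 and 143 CPM in Control and at 160.5, 343 and 371 CPM in treated libraries (log2 fold change 1.28, SE 0.25, adjusted p = 0.00772).

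Complement transcripts rose in part. Of 18 genes 11 rose (median log2 fold change 1.13), and 15 of the 18 were lower than in EAE. The count was 4 without treated replicate 2 and 6 without treated replicate 3 or Control replicate 2. C1qa, of the recognition molecule of the classical pathway, was at 38.8, 39.3 and 46.1 CPM in Control and at 66.1, 134 and 143 CPM in treated libraries (log2 fold change 1.47, SE 0.23, adjusted p = 0.00465). C4b, a later component of that pathway, was at 88.7 to 127 CPM in Control and at 178, 256 and 311 CPM in treated libraries (log2 fold change 1.24, SE 0.19, adjusted p = 0.00444). C3, on which all pathways converge, did not pass: 71.8, 125 and 128 CPM against 125, 175 and 234 CPM (log2 fold change 0.72, SE 0.25, adjusted p = 0.0687). Its treated replicate 1 lay within the Control range.

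Markers of infiltrating lymphocytes were near the floor of the data. Of 28 T cell genes 8 passed the filter and 3 rose, Cd4, Il2rb and Lck, of which Cd4 passed only through the treated libraries (17 counts over the 3 Control libraries). Of the other 7, 2 rose, and Il2rb, with 18 counts over the Control libraries, also needed treated libraries to pass. No T cell gene rose without treated replicate 2 or 3 or Control replicate 2. Lck was not called with the length trend removed (1.18, adjusted p = 0.0772). Cd3e, Cd3d, Cd3g, Cd8a and Foxp3 were among the 20 not tested. The summed level of the 28 genes was 8.62 to 8.87 CPM in Control, 10.2, 21.7 and 28.8 CPM in treated and 43.7 to 54.0 CPM in EAE libraries. Cd4 was at 0.126 to 0.229 CPM in Control and at 0.320, 1.197 and 2.31 CPM in treated libraries (log2 fold change 2.77, SE 0.63, adjusted p = 0.0137), and it was no longer called, or no longer tested, without any 1 of the treated libraries or without Control replicate 2. Of 7 tested B and plasma cell genes Cd22 and Igkc rose. Igkc, with 15 counts over the Control libraries, passed only through the treated libraries, as did 1 uncalled gene of the list. Of the other 5, 1 rose, Cd22, and with 25 counts over the Control libraries it also needed treated libraries to pass. Without any 1 Control or treated library Igkc was no longer called or tested, and it was not called with the length trend removed (3.75, adjusted p = 0.0963). Of 16 tested monocyte and macrophage genes 9 rose, and 6 of the 13 with 10 or more counts in at least 1 Control library. Of the 16, 5 rose without treated replicate 1 and 3 without replicate 2 or 3. Lyz2, a lysozyme of myeloid cells, was at 9.35, 8.15 and 10.5 CPM in Control, at 22.5, 45.1 and 63.5 CPM in treated and at 377 to 543 CPM in EAE libraries (against Control 2.23, SE 0.31, adjusted p = 0.00403; against EAE -3.32, SE 0.30, adjusted p = 0.000562). The part of such cells in the rises of antigen presentation was not tested.

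Neutrophil granule genes departed from this order. Of 12 tested genes 9 rose against Control (median log2 fold change 2.20), and for 7 of the 9 treated replicate 1, the library nearest Control on the first principal component, was the highest treated library. S100a9 was at 2.33, 2.02 and 6.74 CPM in Control, at 29.5, 9.19 and 10.4 CPM in treated and at 9.83, 8.73 and 4.09 CPM in EAE libraries (against Control 2.15, SE 0.54, adjusted p = 0.0200). Ngp, a granule protein of immature neutrophils, was at 0.886, 0.853 and 2.16 CPM in Control and at 11.7, 3.62 and 4.74 CPM in treated libraries (log2 fold change 2.36, SE 0.56, adjusted p = 0.0160). Control replicate 3 was the highest Control library for both. In EAE against Control 2 of the 12 rose, Csf3r and Lcn2, and these were also the 2 that were lower in treated cord than in EAE. The other rises were not called between treated and EAE cord, for S100a9 with a log2 fold change of 1.11, SE 0.50, adjusted p = 0.313. Without Control replicate 2, 2 of the 12 rose, without treated replicate 2, 5, and without treated replicate 1, 7.

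Astrocyte genes of the reactive state rose in part. Of 25 reactive genes 15 rose (median log2 fold change 0.73), and 14 of the 25 were lower than in EAE. The called members with the smallest p were Lcn2, Psmb8, Cxcl10 and Gbp2. Lcn2, Cxcl10 and Gbp2 were also counted in the neutrophil, chemokine and GTPase lists, so the counts of these lists are not separate. The part of astrocytes in these rises was not tested. Of the 25, 6 rose without treated replicate 2, 7 without treated replicate 3 and 9 without Control replicate 2. Serpina3n, a secreted protease inhibitor, was at 69.0, 67.1 and 73.8 CPM in Control and at 96.7, 157 and 222 CPM in treated libraries (log2 fold change 1.18, SE 0.23, adjusted p = 0.00870). Vim, an intermediate filament gene, was at 51.3, 84.6 and 75.9 CPM in Control and at 91.4, 145 and 135 CPM in treated libraries (log2 fold change 0.81, SE 0.21, adjusted p = 0.0230; 0.72, adjusted p = 0.0544 with the length trend removed). Gfap, the filament gene that marks reactive astrocytes, was higher in each treated library than in each Control library (3188, 3584 and 3612 CPM against 1984, 2637 and 3125 CPM) but did not pass (log2 fold change 0.42, SE 0.15, adjusted p = 0.0746). Of 15 homeostatic genes 2 fell, the glutamate transporter gene Slc1a2 (log2 fold change -0.29, SE 0.06, adjusted p = 0.00955) and the connexin gene Gja1 (log2 fold change -0.40, SE 0.08, adjusted p = 0.00979), and both calls needed treated replicates 2 and 3. With the gene length trend removed Slc1a2 was at -0.03 and did not pass.

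**Figure D3:**
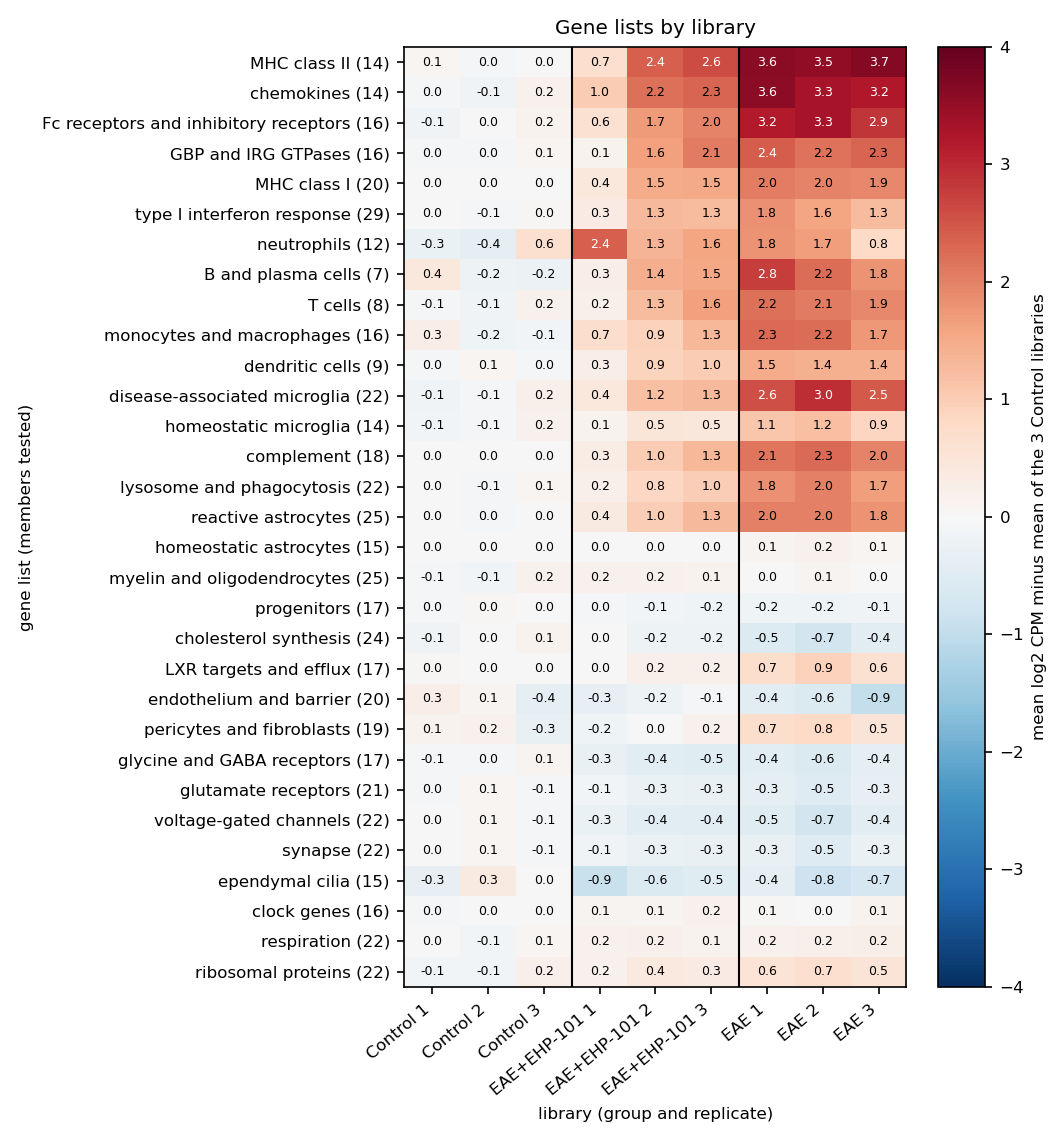
Mean log2 CPM of the tested members of 31 gene lists in each of the 9 libraries (columns), minus the mean of the 3 Control libraries; red is higher and blue lower than Control. MHC class II runs from Control through treated replicate 1 (0.68) and replicates 2 and 3 (2.41 and 2.61) to EAE (3.54 to 3.67). Neutrophils are highest in treated replicate 1 (2.41). The lists of glycine and GABA receptors and of voltage-gated channels are lower in all treated and EAE libraries.

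Inhibitory receptor genes of neurons fell. Of 17 genes for glycine and GABA receptors, 12 fell (median log2 fold change -0.32) against 11 in EAE (median -0.34), and none was called between treated and EAE cord. That contrast called few genes at all (64 higher and 739 lower of 16454). Here and below, a gene not called in it is thus not shown to be at its EAE level. Glra1 (chr11:55514813-55607790 in mm10), the main alpha subunit of the adult glycine receptor of the cord, was at 122, 109 and 91.4 CPM in Control and at 54.5, 39.4 and 40.1 CPM in treated libraries (log2 fold change -1.27, SE 0.21, adjusted p = 0.00530). EAE libraries held 37.3, 29.2 and 56.5 CPM (treated against EAE 0.12, SE 0.21, adjusted p = 0.826). Gabrb2, a GABA receptor beta subunit, went from 98.8 to 115 CPM to 71.1, 66.5 and 59.9 CPM (log2 fold change -0.67, SE 0.09, adjusted p = 0.00403), and Gabra2, an alpha subunit, from 45.7 to 50.9 CPM to 34.8, 33.5 and 30.9 CPM (log2 fold change -0.53, SE 0.09, adjusted p = 0.00594). The groups did not overlap for these 3 genes, and treated replicate 1 was the highest treated library for each. They were among the 4 calls of the list that held with each library left out. Of the 17, 4 fell without treated replicate 2 and 5 without replicate 3. With the length trend removed 8 of the 17 fell, Glra1 among them (-1.40, adjusted p = 0.00934).

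For channel, synaptic and glutamate receptor genes more of the calls were lost with the length trend removed. Of 22 voltage-gated channel genes 11 fell (median -0.32), of 22 synaptic genes 11 (median -0.28) and of 21 glutamate receptor genes 9 (median -0.23), and with the trend removed 4, 2 and 1 fell. In the same order, 4, 0 and 0 fell without treated replicate 2, 4, 2 and 0 without treated replicate 3, and 6, 4 and 4 without Control replicate 2. No call of the synaptic and glutamate receptor lists held with each library left out. Without Control replicate 1, 7 synaptic genes fell. Kcnma1, the large-conductance calcium-activated potassium channel, was at 47.6, 49.7 and 44.0 CPM in Control and at 31.8, 26.2 and 27.3 CPM in treated libraries (log2 fold change -0.73, SE 0.13, adjusted p = 0.00590; -0.54, adjusted p = 0.0156 with the trend removed). Slc6a5, the glycine transporter that marks glycinergic neurons, was at 194, 184 and 154 CPM in Control and at 105, 65.4 and 61.4 CPM in treated libraries (log2 fold change -1.197, SE 0.27, adjusted p = 0.0143). Gad2, for GABA synthesis, and Slc17a6, the vesicular glutamate transporter of excitatory neurons, fell by 0.58 and 0.44 on the log2 scale. None of these 4 genes was called between treated and EAE cord. The list of 17 general neuron genes was mixed, with 3 falls (Elavl4, Elavl2 and Ina), 1 rise (Uchl1) and a median of 0.04; Uchl1 was not called with the trend removed (0.08, adjusted p = 0.513). Of the falls 1 was called without treated replicate 2 or 3. Of 13 motor neuron genes 1 fell, Esrrg, and of 18 interneuron genes 4 fell and 1 rose. No motor neuron gene fell without treated replicate 2, and without treated replicate 2 or 3, 1 interneuron gene fell and none rose. Control replicate 1, the library with the muscle transcripts, lay 0.58 above the Control mean for the motor neuron list, and without it 7 motor neuron genes rose.

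Among the 10 largest falls called with each library left out were Dnah12, Oprm1, Dnah11, Samd5, Glra1, Lingo4, Oip5os1, Dok6 and Ksr2. Oprm1, the mu opioid receptor (chr10:6788601-7038209 in mm10), was at 7.19, 6.16 and 6.09 CPM in Control and at 1.92, 1.91 and 1.83 CPM in treated libraries (log2 fold change -1.78, SE 0.22, adjusted p = 0.00403). The treated libraries were nearly equal, and EAE libraries held 1.35 to 2.93 CPM. Oip5os1, the abundant long noncoding RNA Cyrano (chr2:119594296-119600746), was at 94.5, 90.5 and 105 CPM in Control and at 48.4, 38.3 and 37.6 CPM in treated libraries (log2 fold change -1.22, SE 0.14, adjusted p = 0.00403). Samd5, Lingo4, Dok6 and Ksr2 fell by 1.30, 1.24, 1.16 and 1.13 on the log2 scale. Dnah12 and Dnah11 encode axonemal dyneins of motile cilia. Dnah12 was at 2.66, 6.60 and 4.19 CPM in Control and at 0.959, 1.00 and 1.28 CPM in treated libraries (log2 fold change -2.05, SE 0.36, adjusted p = 0.00612). Of 15 genes of ependymal cilia 5 fell (median -0.58). Control replicate 2 lay 0.35 above the Control mean for the cilia list, and without it or without treated replicate 2, 1 fell, and without treated replicate 3, 3. For none of these named falls was treated cord called different from EAE.

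Clock genes changed in both directions. Of 16 clock genes 3 fell, the activators Arntl, Npas2 and Clock, and 4 rose, Dbp, Nr1d1, Ciart and Per3. Without treated replicate 3, 2 rose, and Ciart was not called with the length trend removed (0.40, adjusted p = 0.0655). Arntl, the partner of CLOCK, was at 26.3, 24.7 and 22.4 CPM in Control and at 17.1, 16.6 and 15.5 CPM in treated libraries (log2 fold change -0.58, SE 0.08, adjusted p = 0.00403). Dbp, a transcription factor of clock output, was at 7.81, 12.3 and 14.0 CPM in Control and at 26.9, 28.9 and 29.6 CPM in treated libraries (log2 fold change 1.32, SE 0.16, adjusted p = 0.00403). All 3 treated libraries lay close together for both genes, replicate 1 included. EAE libraries were at 15.3 to 17.2 CPM for Arntl and 25.02 to 26.5 CPM for Dbp, and no clock gene was called between treated and EAE cord. The hour at which cords were taken is not given in the labels used here, so an hour that differed between groups cannot be told apart from the condition. Among 15 heat shock genes 3 fell, Hspa4l, Hsp90aa1 and Chordc1, and 5 fell without Control replicate 2. Hspa4l, an HSP110 family chaperone, was at 298, 286 and 298 CPM in Control and at 198, 168 and 176 CPM in treated libraries (log2 fold change -0.70, SE 0.08, adjusted p = 0.00403).

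**Figure D4:**
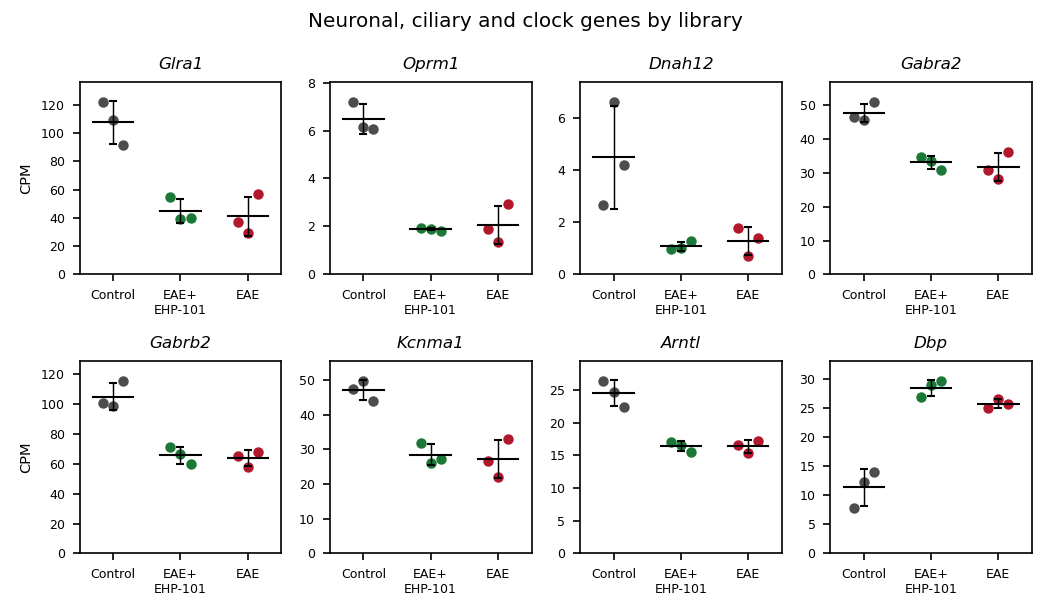
CPM in each library for 6 genes of neurons or cilia and for Arntl and Dbp; points are single libraries, with the mean and the SD (n = 3). Treated and EAE libraries lie apart from Control in every panel, below it in 7 panels and above it for Dbp (26.9 to 29.6 CPM in treated against 7.81 to 14.0 CPM in Control libraries).

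No tested myelin gene fell. Of 25 myelin and oligodendrocyte genes 6 rose (median log2 fold change 0.14), among them Mag, Nkx6-2, Cldn11, Opalin and Hapln2. Mag, the myelin-associated glycoprotein, was at 903, 986 and 961 CPM in Control and at 1242, 1229 and 1148 CPM in treated libraries (log2 fold change 0.34, SE 0.06, adjusted p = 0.00616), and of the 6 calls this was the one that held with each library left out. Mbp, myelin basic protein, did not pass (log2 fold change 0.13, SE 0.11, adjusted p = 0.446), nor did the connexin gene Gjc3 (-0.06, SE 0.07, adjusted p = 0.596). Scaled by library totals 10 of the 25 rose, 14 without Control replicate 3, 1 without treated replicate 2 and 3 without treated replicate 3 or Control replicate 2. With the length trend removed Cldn11, Opalin and Hapln2 were not called (log2 fold changes 0.34, 0.20 and 0.17). Control replicate 3 held more myelin transcripts than the other Control libraries (a summed 44024 CPM against 32958 and 33364 CPM), and treated libraries held 39630.4 to 41098 CPM. Of 17 genes of oligodendrocyte progenitors and their differentiation, 4 fell and Olig1 rose (log2 fold change 0.18, SE 0.05, adjusted p = 0.0373; 0.12, adjusted p = 0.160 with the length trend removed). The falls were Tnr, Xylt1, Ptprz1 and Tenm4. The Olig1 call was lost without any 1 of the 6 libraries. Tnr, the tenascin-R of perineuronal nets, was at 71.6, 69.2 and 62.5 CPM in Control and at 46.4, 38.1 and 37.9 CPM in treated libraries (log2 fold change -0.73, SE 0.10, adjusted p = 0.00403). Tenm4, a teneurin needed for oligodendrocyte differentiation, was at 106, 127 and 88.5 CPM in Control, at 82.4, 69.5 and 65.6 CPM in treated and at 44.9 to 61.0 CPM in EAE libraries (against Control -0.56, SE 0.14, adjusted p = 0.0201). The Tenm4 call was lost without treated replicate 2 or 3 or Control replicate 2, and with the length trend removed (-0.32, adjusted p = 0.104). Olig2 did not pass (0.15, SE 0.13, adjusted p = 0.434).

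In the list of cholesterol synthesis 1 call was made against Control. Of 24 genes 1 fell, the sterol carrier gene Stard4 (log2 fold change -0.61, SE 0.14, adjusted p = 0.0160), and none rose (median -0.15). In EAE against Control 19 of the 24 fell (median -0.61), and 12 were higher in treated cord than in EAE. Hmgcs1, the HMG-CoA synthase of this pathway, was at 547, 611 and 878 CPM in Control, at 647, 563 and 515 CPM in treated and at 379, 317 and 389 CPM in EAE libraries. Its treated libraries overlapped Control (log2 fold change -0.24, 95% interval -0.58 to 0.10) and lay above all EAE libraries (treated against EAE 0.67, SE 0.16, adjusted p = 0.0307). Lss, lanosterol synthase, did not pass (-0.34, SE 0.11, adjusted p = 0.0560), and its lowest treated libraries were replicates 2 and 3 (37.8, 33.7 and 32.4 CPM against 37.9, 44.9 and 48.9 CPM in Control). Without treated replicate 1, 4 of the 24 fell, without Control replicate 1, 3, and without treated replicate 2 or 3, none. Of 17 LXR targets and efflux genes 3 rose, 1 with the length trend removed, 1 without treated replicate 3 and none without treated replicate 2. Among them Apoe rose (log2 fold change 0.54, SE 0.17, adjusted p = 0.0424), with 1422, 1974 and 2038 CPM in treated libraries against 1155 to 1372 CPM in Control and 4053 to 6193 CPM in EAE. The Apoe call was lost with the length trend removed (0.39, adjusted p = 0.135) and without Control replicate 1 or 2 or treated replicate 2 or 3.

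Of 20 endothelial genes 1 fell, the thyroid hormone transporter gene Slco1c1 (log2 fold change -0.26, SE 0.08, adjusted p = 0.0436), against 12 falls in EAE. The list's median was -0.21 in treated cord and -0.61 in EAE. Cldn5, the tight junction claudin of brain vessels, was at 41.0, 36.3 and 27.5 CPM in Control and at 23.7, 27.0 and 26.3 CPM in treated libraries, lower in each, with a log2 fold change of -0.44 that did not pass (95% interval -0.92 to 0.03, adjusted p = 0.165). Control replicate 3 was 0.38 below the Control mean for the list, and without it 7 of the 20 fell. The Slco1c1 call was lost with the length trend removed (-0.24, adjusted p = 0.0757) and without each other library of the 6. Of 19 genes of pericytes and fibroblasts Col1a2 and Tagln rose and Rgs5 and Acta2 fell, shares near the 9.87% and 9.88% over all genes, and none of the 4 calls held with each library left out. Tagln was not called with the length trend removed (0.46, adjusted p = 0.0917), and without Control replicate 3, 6 of the 19 fell.

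Some of the largest rises of EAE were not called against Control under treatment. The 8 largest of that kind were Hpse, Col3a1, Cd300a, Ccl6, Plau, Jchain, Slc43a3 and Cd36. Col3a1, a fibrillar collagen of scars, was at 4.13, 5.34 and 3.27 CPM in Control, at 4.83, 5.69 and 7.46 CPM in treated and at 35.0 to 40.6 CPM in EAE libraries (treated against Control 0.49, 95% interval 0.08 to 0.91, adjusted p = 0.0849). Cd36, a scavenger receptor for oxidised lipids, was at 2.17, 0.379 and 0.425 CPM in Control, at 0.256, 1.13 and 2.02 CPM in treated and at 5.96 to 6.24 CPM in EAE libraries (treated against Control 0.20, 95% interval -1.25 to 1.66). Plau, the urokinase plasminogen activator, was above Control in each treated library (3.52 to 4.52 CPM against 2.66 to 3.00 CPM) and did not pass (0.56, 95% interval 0.06 to 1.07). The intervals are not adjusted for the number of genes, and their upper ends leave a rise of nearly 2-fold or more possible for each of the 3. Hpse, Cd300a, Ccl6 and Slc43a3 were at 1.07, 1.16, 0.94 and 1.01 against Control, with 95% intervals that lay above 0. Without treated replicate 1 they and Col3a1 were called (adjusted p = 0.0104, 0.00361, 0.0161, 0.0131 and 0.0374), while Plau, Jchain and Cd36 were not. A gene not called here is thus not shown to be back at its Control level. The log2 fold changes of the 8 genes in EAE were 2.62 to 3.49.

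**Figure D5:**
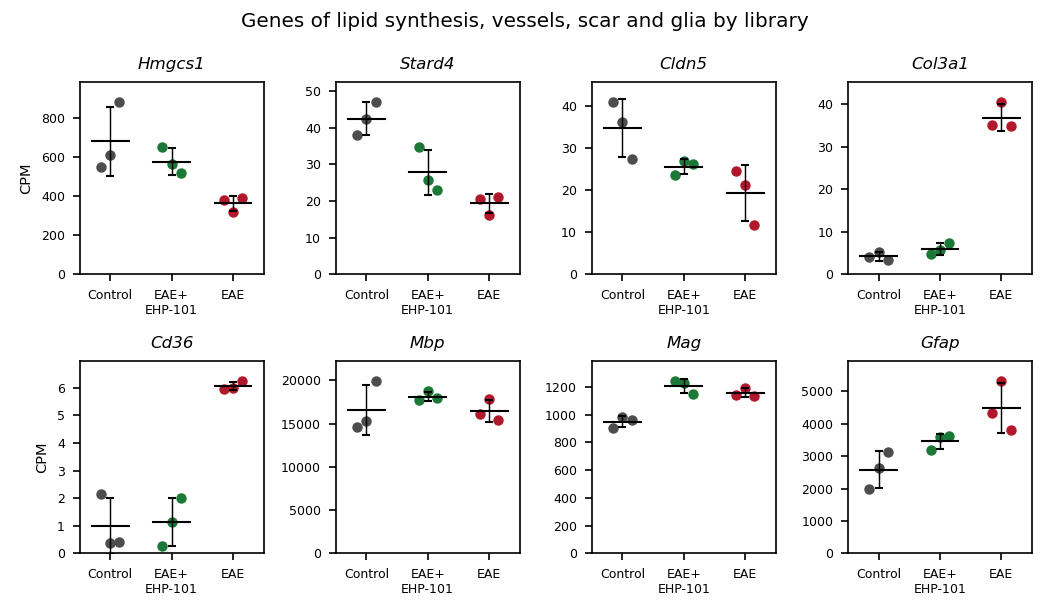
CPM in each library for 8 genes of sterol synthesis, vessels, scar and glia; points are single libraries, with the mean and the SD (n = 3). Treated libraries overlap Control for Hmgcs1, Col3a1, Cd36 and Mbp, lie below it for Stard4 and Cldn5 and above it for Mag and Gfap, and of these Stard4 and Mag were called.

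Lists for receptors of cannabinoids, PPAR receptors, the hypoxia response and oxidative stress held 1 to 3 calls in a direction, next to 9.87% higher and 9.88% lower over all genes, and are described by their members. Of 13 tested endocannabinoid genes Cnr2 and Abhd12 rose and Cnr1 fell, Abhd12 not with the length trend removed (0.12, adjusted p = 0.146). Cnr2, the CB2 receptor of immune cells, was at 0.558, 0.474 and 0.556 CPM in Control, at 0.895, 1.16 and 1.57 CPM in treated and at 3.09 to 3.53 CPM in EAE libraries (against Control 1.19, SE 0.25, adjusted p = 0.0103). Cnr1, the CB1 receptor of neurons, was at 69.3, 74.8 and 77.6 CPM in Control and at 62.2, 55.2 and 54.2 CPM in treated libraries (log2 fold change -0.37, SE 0.08, adjusted p = 0.0128; -0.24, adjusted p = 0.0640 with the length trend removed). Pparg was at 0.948 to 1.28 CPM in Control and 1.10 to 1.51 CPM in treated libraries and did not pass (0.13, SE 0.22, adjusted p = 0.708). Among 17 tested genes of PPAR receptors and targets Ucp2 rose and 1 gene fell, and among 21 of the hypoxia response Hk2, Egln2 and Ldha rose. With the length trend removed Egln2 (0.17, adjusted p = 0.0614) and Ldha (0.15, adjusted p = 0.129) were not called, and without treated replicate 2 or 3 no hypoxia gene rose. Hk2, hexokinase 2, was at 5.05, 5.56 and 5.86 CPM in Control, at 6.84, 13.4 and 12.9 CPM in treated and at 19.8 to 25.2 CPM in EAE libraries. Gpx1, Sod1 and Hmox1 rose and Sod2 fell among 20 genes of the oxidative stress response. With the length trend removed Sod1 (0.01, adjusted p = 0.894) and Hmox1 (0.42, adjusted p = 0.0848) were not called, and 2 of the 20 rose and 3 fell. Without Control replicate 3, 4 endocannabinoid, 3 PPAR and 5 oxidative stress genes rose. Without treated replicate 2 or 3, 1 endocannabinoid gene and no PPAR gene rose, and neither Cnr1 nor Sod2 was called.

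A small group of genes lay outside both other groups. In 111 called rises and 106 called falls all treated libraries lay beyond every Control and every EAE library (0.675% and 0.644% of genes tested). Called or not, 319 genes (1.94%) lay above and 299 (1.82%) below both groups. Of the called genes 5 rises and 6 falls were also called against EAE. Carns1, the carnosine synthase, was at 69.7, 68.6 and 58.7 CPM in Control, at 82.7, 86.3 and 86.6 CPM in treated and at 64.3 to 73.4 CPM in EAE libraries (against Control 0.38, SE 0.07, adjusted p = 0.00879; against EAE 0.31, SE 0.07, adjusted p = 0.0367). Gpam, a glycerol phosphate acyltransferase of lipid synthesis, was at 103, 97.5 and 105 CPM in Control, at 83.5, 77.6 and 82.4 CPM in treated and at 103 to 110.1 CPM in EAE libraries (against Control -0.33, SE 0.06, adjusted p = 0.00594; against EAE -0.40, SE 0.06, adjusted p = 0.00305). Nrcam, a cell adhesion protein of nodes of Ranvier, fell by 0.33 against Control and was lower by 0.21 against EAE, and with the length trend removed it did not pass against Control (-0.15, adjusted p = 0.106). The other named rises were Rab37, Itgb4, Pacs2 and Pcyt2, with log2 fold changes of 0.19 to 0.28, and the other named falls Col8a1, Irak2 and Capza2. With the length trend removed Pcyt2 (0.11, adjusted p = 0.319), Col8a1 (-0.50, adjusted p = 0.119) and Irak2 (-0.27, adjusted p = 0.0659) were not called either. Of the 10 genes named here Gpam and Nrcam alone kept their call with each library left out.

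Genes of respiration and ribosomes rose slightly, and few of these calls stayed with the gene length trend removed. The trend differed between Control and treated libraries, so its removal can also take out differences between the groups. Its part in these rises was not tested. Of 22 respiratory chain genes 12 rose and 1 fell (median log2 fold change 0.20) and of 22 ribosomal protein genes 10 rose (median 0.30); with the length trend removed 1 and 0 rose. Cox4i1, of the last complex of the chain, was at 451, 411 and 423 CPM in Control and at 531, 554 and 543 CPM in treated libraries (log2 fold change 0.34, SE 0.06, adjusted p = 0.00531; 0.09, adjusted p = 0.322 with the trend removed). Among ribosomal genes Rpl32 gave 0.43, SE 0.08, adjusted p = 0.00662, and 0.15, adjusted p = 0.126 with the trend removed. Of the ribosomal genes 21 rose without Control replicate 3, 1 without Control replicate 1 or 2 or treated replicate 2, and 2 without treated replicate 3. Respiratory genes that rose were 3 without treated replicate 2, 4 without treated replicate 3, 5 without Control replicate 2, 6 without treated replicate 1 and 7 without Control replicate 1. Proliferation genes showed 3 rises among 18 tested, Top2a, Mki67 and Ccna2, none of them without treated replicate 2 or 3.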

How the data were processed

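Spinal cord poly-A RNA of the 9 mice's libraries was sequenced with single-end reads of 50 bases from a stranded kit, per the labels' protocols. The authors deposited 1 table of raw read counts per gene, which needed no rounding. The submitters' processing notes name the build mm10, the trimmer Trimmomatic 0.36, the aligner HISAT2 2.1.0, the counter featureCounts 1.6.1 and DESeq2 1.20.0; the settings for strand and multimapping reads are not stated there. Symbols came from the RefSeq gene table, and 1904 identifiers without a symbol, which held 0.311% to 0.619% of the counts, stayed in the fit unnamed.

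Counts were fitted in R 4.3.3 with edgeR 4.0.16 (TMM scaling, quasi-likelihood test, 1 mean per group, all 9 libraries), for genes with 10 or more counts in 3 or more of the 6 Control and EAE+EHP-101 libraries. P-values were adjusted by Benjamini-Hochberg over all 16454 genes and called under 0.05. They set the difference between group means against the spread within groups, which was estimated over all 9 libraries, EAE included. With the 6 libraries alone, 1180 genes were called higher and 1335 lower. Counts were also simulated around 1 mean per gene over the 9 libraries, with some genes above a minimum count changed in the treated group. The test recovered 67.2% of genes set to a 1.5-fold change, 91.0% of those set to 2-fold and 98.5% of those set to 4-fold, with 10 false calls among 16454 genes. The simulation held no other group difference, no trend with gene length and no library that stood apart. These rates therefore need not hold for the data. Alternatives were DESeq2 1.42.0, limma 3.58.1 (voom with sample weights), other scalings and filters, the 6 libraries alone, the replicate number as a block, removal of each library's trend with gene length, and each library left out. CPM are the deposited counts over TMM-scaled library totals.

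The comparison and the gene lists were chosen with earlier results of these data known. Genes named are the 10 largest rises and falls called with each library left out and without overlap, up to 4 called members of each list by smallest p, genes outside both groups, the 8 largest uncalled EAE rises, and 9 chosen by name. Some genes that these rules select are not reported here. Chosen after their values were seen were B2m, S100a9, C3, Hmgcs1, Cldn5, Ciita, P2ry12, Nr1d1, Ciart, Per3, Olig1, Opalin, Hapln2, Serpina3n, Nlrc5, Vim, Spp1, Igf1, Cd86, H2-DMa, Cd80, Cd40, Erap1, Tapbpl, Rsad2, Ifit2, Oas2, Stat2 and Igkc.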

Additional observations from a re-analysis of the deposited data

How the results depend on the processing

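The numbers of genes higher and lower (1624 and 1625) became 2651 and 2546 with voom and sample weights, 726 and 797 with the gene length trend removed, and 430 and 482 with the replicate block and the length trend removed together; for the last, genes changed at least 2-fold went from 287 and 72 to 185 and 46. The replicate block alone gave 1081 and 1180. Deviations of same-numbered libraries correlated between -0.198 and 0.148, and those of differently numbered libraries between -0.206 and 0.254. With 3 libraries per group this cannot show whether the numbers pair the libraries. Why calls were lost under the block was not tested. Leaving out 1 library gave 237 to 1945 genes higher, 361 to 1847 lower, 88 to 367 higher at least 2-fold and 24 to 100 lower at least 2-fold. The low ends came without treated replicate 2. Without treated replicate 3 the 2-fold counts were 100 and 32, and without Control replicate 2 they were 189 and 42. DESeq2's test gave 1700 and 1947, and the other scalings and filters stayed within 1.5 times of the 2 counts. Under these alternatives none of the 188 called genes examined singly changed sign; 45 were no longer called with the length trend removed, 22 with the block, 91 of 177 without treated replicate 2 and 69 of 177 without treated replicate 3. Uncalled genes with small log2 fold changes changed sign: Cd36 was at -0.19, -0.15 and -0.51 without Control replicate 2, Control replicate 3 and treated replicate 3; Pparg at -0.0236 without treated replicate 3 (0.22 at most, without Control replicate 1); Ciita at -0.16 without treated replicate 3 (0.54 at most, without treated replicate 1); P2ry12 at 0.18 with voom, 0.21 without Control replicate 3 and 0.04 without treated replicate 1; Cd40 at -0.27 without treated replicate 2 (0.42 at most, without treated replicate 1); and Erap1 at -0.0232, -0.0018, -0.0416 and -0.0010 without Control replicate 1 or 2 or treated replicate 2 or 3 (0.12 at most, without treated replicate 1). The cause of these changes was not tested. With 3 libraries per group, changes under 2-fold and genes of few counts may have been missed.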

Other observations

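Some lists bear on which tissue the libraries held. Of 20 tested Hox genes, which mark the level along the cord, 1 fell, Hoxc10, at 0.820, 3.60 and 4.19 CPM in Control, 1.02, 0.906 and 0.256 CPM in treated and 0.121, 0.482 and 0.250 CPM in EAE libraries (log2 fold change -1.97, SE 0.57, adjusted p = 0.0343). Control replicate 1 lay within the treated range for it, and the call was lost without Control replicate 2 or 3 or treated replicate 2 or 3. Of 7 tested dorsal root ganglion genes Scn9a, a sodium channel also found in motor neurons, fell (log2 fold change -0.71, SE 0.13, adjusted p = 0.00684) and Runx1, also an immune cell factor, rose (log2 fold change 1.02, SE 0.31, adjusted p = 0.0386). Of 4 tested erythroid genes Hba-a2 and Alas2 fell, at 2.11, 1.94 and 1.28 CPM and 1.37, 0.712 and 0.737 CPM in treated libraries against 2.395 to 4.11 CPM and 1.71 to 2.27 CPM in Control. Sgk1, a kinase gene of the glucocorticoid response, varied widely among treated libraries (55.4, 105 and 282 CPM) and was not called (1.51, SE 0.50, adjusted p = 0.0552).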
